A study of Bos taurus with 4 samples.

Results

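The imprinted genes IGF2, IGF2R, DLK1, NNAT, GNAS, CDKN1C, PLAGL1, PEG3, PEG10 and MEST were measured in spermatozoa of Murrah buffalo breeding bulls. They were taken as every sample probe of the array whose gene name in the scanner output was one of these 10 symbols, which gave 47 probes (50 spots) among 51282 probes with 32429 gene names. RNA from Percoll-selected spermatozoa of bulls with a high or a low field conception rate had been pooled from 2 bulls each, giving 2 high-fertile and 2 low-fertile pools, with no other treatment in either group. The age of the bulls was not given in the sources used here, the labels do not say which bulls entered which pool, and the pool was therefore the replicate. Each pool was labelled with 1 dye and hybridized to its own bovine array, so that buffalo RNA met probes designed on cattle sequence, and the record names cattle as the organism.

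An imprinted gene is transcribed mainly from the allele of 1 parent, because methylation laid down in the germ line differs between the maternal and the paternal chromosome. In the male germ line the maternal marks are erased and the paternal ones are written before meiosis, and the mature sperm nucleus is packed with protamines and is largely silent, so sperm RNA is mostly a remnant of earlier transcription in the testis. Many imprinted genes act on growth of the fetus and placenta, and several of the paternally expressed ones promote it. The array reads the summed RNA of both alleles and of all cells in the pool. Fewer cells of a type and less RNA per cell therefore cannot be told apart, and the data hold no information on methylation or on which allele was transcribed.

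The probes are 60 bases long. Those shown here read coding sequence in the frame used, and they were chosen because they carry called differences of the growth factor IGF2, the G protein gene GNAS, the EGF-like protein DLK1 and the membrane protein NNAT, or lie in the same transcript as one, or are the tested probe of the receptor IGF2R. Sequences run 5′ to 3′ as the scanner output gives them. Capitals mark cysteine codons in the IGF2 and DLK1 probes and the codons of the GTP-binding P loop in the first GNAS probe, and the remaining probes have none marked. The IGF2 probe holds 4 cysteine codons of the insulin-like A domain, whose cysteines form the disulfide bridges of this hormone family, and the DLK1 probes hold 2 and 3 cysteine codons of EGF-like repeats.
IGF2 A_73_P109036: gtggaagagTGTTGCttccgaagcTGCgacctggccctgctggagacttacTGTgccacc
IGF2R A_73_P081841: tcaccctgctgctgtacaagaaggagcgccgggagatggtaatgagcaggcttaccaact
DLK1 A_73_P360536: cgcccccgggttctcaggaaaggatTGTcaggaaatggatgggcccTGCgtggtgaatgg
DLK1 A_73_P102621: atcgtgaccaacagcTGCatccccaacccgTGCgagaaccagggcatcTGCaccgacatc
NNAT A_73_P035166: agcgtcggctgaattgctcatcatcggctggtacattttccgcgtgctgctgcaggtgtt
GNAS A_73_P513388: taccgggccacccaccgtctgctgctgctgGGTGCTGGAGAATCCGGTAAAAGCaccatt
GNAS A_73_P102626: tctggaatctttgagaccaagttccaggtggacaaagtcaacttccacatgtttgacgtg

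On the Btau_3.1 build that the scanner output names, the IGF2 probe A_73_P109036 lies at chr29:51272922-51272981 and the GNAS probe A_73_P513388 at chr13:58195270-58195329. The placements of 10 of the 47 probes span more than 60 bases, as when a probe crosses a splice junction. One of them is the NNAT probe, at chr13:67049982-67051256, another is the GNAS probe A_73_P102626, at chr13:58183354-58183526, and the IGF2R probe is one as well, at chr9:100147256-100148265. The DLK1 probe A_73_P360536 is on an unplaced contig and A_73_P102621 is not placed. Exons and untranslated regions were not assigned, since no annotation of this build was used here.

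The signals below are the background-corrected processed signals of the scanner software, in fluorescence units. Levels are log2 signals minus the 75th percentile of the array, and a difference is the mean level of the low-fertile pools minus that of the high-fertile pools, given with its standard error from limma. A probe entered the test if, in 1 group or both, each array of that group showed it well above background by the scanner's own mark, and p-values were adjusted by the Benjamini-Hochberg method over all 21033 tested probes. The 75th percentile was 36.7 and 37.1 for high-fertile pools against 37.0 and 32.65 for low-fertile pools. Low-fertile pool 2 had 25.4% of its probes well above background, against 45.3% or more on the other arrays. The 2 groups lay in separate rows of the slide, so that position and fertility cannot be told apart. With 2 pools a group, an exact permutation test cannot give a two-sided p below 0.333, precision is limited by having 4 arrays, and the p-values measure only the spread between these pools.

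Each cell type marker was read by its brightest probe, and in the test by its brightest tested probe. Sperm markers were partly detected. Of 17 sperm markers 4, SMCP, AKAP3, AKAP4 and LDHC, were well above background on no array, and the summed signal of all 17 was 1005 and 884 in high-fertile pools and 1016 and 806 in the low-fertile pools. PRM2 (180 in high-fertile pool 1) and PRM3 (168 in low-fertile pool 1) were each high on a single array and at 16.1 or less on the others. Of the 7 sperm markers tested, PRM1 rose in low-fertile pools by 0.67 (adjusted p = 0.0231 in limma) and the other 6 did not pass the threshold. The 9 leukocyte markers summed to 25986 and 25507 in the high-fertile and 30536 and 29983 in the low-fertile pools. LYZ made up the largest part, with 13584 and 12423 against 16233 and 15621. PTPRC gave 6981 and 7126 against 11503 and 11388, and CD3D 4982 and 5426 against 2271 and 2470. The other leukocyte markers each read 313 or less, and CD3E was well above background on no array. Of the 8 leukocyte markers tested, PTPRC rose in low-fertile pools by 0.78 (adjusted p = 0.016 in limma) and CD3D fell by 1.05 (adjusted p = 0.0102; -0.50 and adjusted p = 0.0939 after a correction for probe GC content), while the other 6 did not pass the threshold. The 8 epithelial markers summed to 931 and 936 against 995 and 978, with EPCAM and CDH1 well above background on no array. The 7 markers of testicular somatic cells on the array summed to 683 and 820 against 774 and 769. Of these 7, all tested, STAR was higher in low-fertile pools by 0.79 (adjusted p = 0.0212 in limma) and the other 6 did not pass the threshold, among them INHA at -0.52. Of the 6 epithelial markers tested none passed by its brightest tested probe, the nearest being CLDN4 at 0.50 (adjusted p = 0.0524 in limma). Other tested probes of a marker could differ widely. Over the tested probes of a gene, differences ran from -0.13 to 1.35 for MUC1, -1.08 to 0.77 for CD14 and 0.18 to 0.78 for PTPRC. They ran from -1.10 to -0.15 for GAPDHS, -0.76 to 0.26 for CYP17A1 and -0.52 to 0.41 for INHA. The tested red cell genes were HBB, higher in low-fertile pools by 1.24 (adjusted p = 0.0118 in limma), and HBA at -0.17 (adjusted p = 0.705). HBB was not well above background in high-fertile pool 1 (20.4), so it entered the test only through the low-fertile pair, where it is higher. The part of other cells in the results on imprinted genes was not tested.

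Of the 47 imprinted gene probes, 37 were well above background on 1 array or more, 20 on all 4 and 10 on none. By pool, 29 and 32 of the 47 were well above background in high-fertile pools 1 and 2 (61.7% and 68.1%), and 37 and 20 in low-fertile pools 1 and 2 (78.7% and 42.6%), so low-fertile pool 2 was the lowest for the imprinted probes as for the whole array. Tested were 28 probes of 9 genes. PLAGL1 was the gene with no tested probe. Of the 28, 8 qualified only through the high-fertile pair and 0 only through the low-fertile pair, against 8145 and 336 of the 21033 probes, so counts over tested probes lean towards those that are higher in high-fertile pools.

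**Figure D1:**
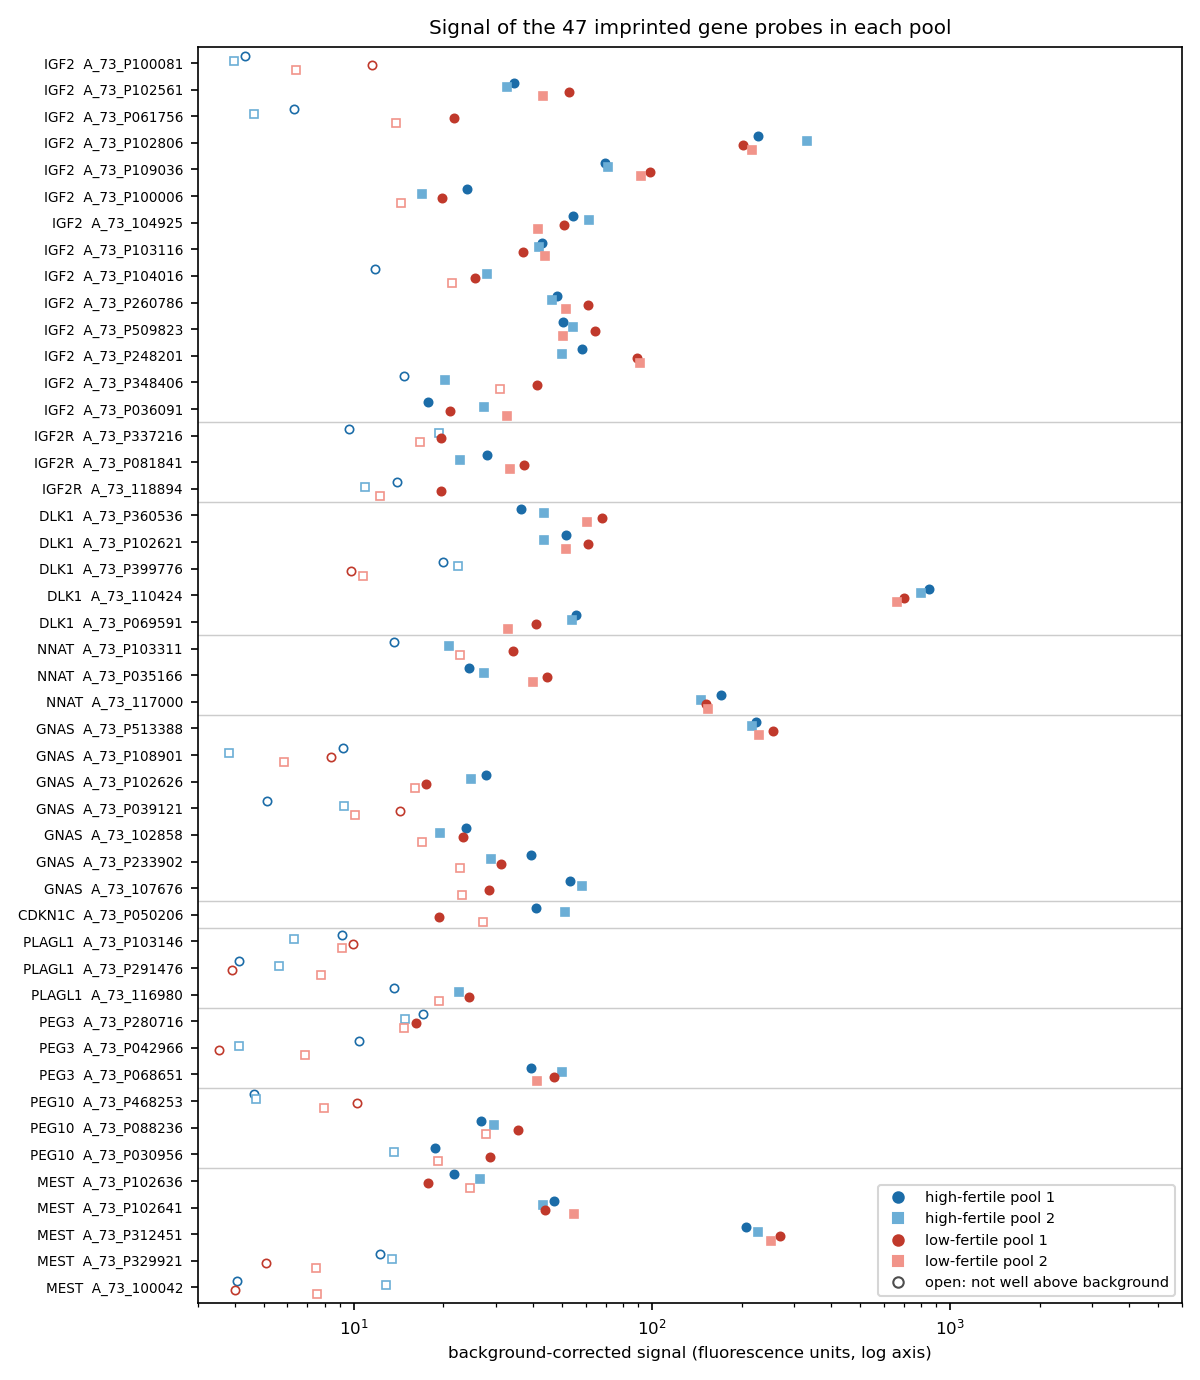
Background-corrected signal (fluorescence units, log axis) of each of the 47 probes in each of the 4 pools, in rows grouped by gene. Blue marks are the high-fertile pools, red marks the low-fertile pools, and open marks were not well above background. The brightest row is the DLK1 probe A_73_110424, at 852 and 802 in the high-fertile and 700 and 664 in the low-fertile pools, and all 3 PLAGL1 rows carry open marks.

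Between low-fertile and high-fertile pools, 7 of the 28 tested probes passed an adjusted p of 0.05. IGF2 (3 probes), DLK1 (1 probe) and NNAT (1 probe) were higher in low-fertile pools, and GNAS (2 probes) was lower. These 7 are 25.0% of the tested imprinted probes, against 26.8% of all tested probes of the array. The 5 higher calls are 17.9% of the tested imprinted probes, against 9.22% of all, and the 2 lower calls are 7.14%, against 17.6% of all. The groups did not overlap for 18 of the 28 probes (64.3%), against 69.1% of the array. The median difference was 0.14 over the 28 probes, in a range from -1.03 to 0.83, and -0.005 over all tested probes. The share of calls was thus close to that of the array as a whole.

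These directions were relative to the scaling. With 7 spike-in probes in place of the 75th percentile, the median difference of all tested probes moved to -0.39 and that of the imprinted probes to -0.24, and the calls became 0 higher and 6 lower in place of 5 and 2. Over the whole array the calls became 567 higher and 6924 lower in place of 1940 and 3692. When the fit was limited to the 12552 probes marked well above background on every array, the balance went the other way, with 2714 higher and 1625 lower on the array and 6 higher and 1 lower among the 20 imprinted probes. Each of the 7 called probes kept its direction under spike-in scaling, as in every other alternative that could be run on it. The 2 called GNAS probes have no value under the filter that asks for every array. Only 1 of the 7, the GNAS probe of the NESP55 transcript, passed the threshold without each single pool in turn, and it had entered the test only through the high-fertile pair, since it was not well above background in low-fertile pool 2. The number of calls fell to 1 when either high-fertile pool was left out, to 4 when low-fertile pool 1 was and to 3 when low-fertile pool 2 was.

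The size of the called differences also moved with the scaling and the background correction. Under spike-in scaling the IGF2 probes A_73_P248201, A_73_P102561 and A_73_P109036 had 0.44, 0.21 and 0.14, DLK1 A_73_P360536 had 0.40 and NNAT A_73_P035166 had 0.41 (adjusted p = 0.0763 in limma), and none of these 5 was then past the threshold. The GNAS probes A_73_107676 and A_73_P102626 had -1.42 and -0.94 and stayed called. With normexp background correction and its offset of 50, the same 7 probes remained called with smaller values, which were 0.47, 0.29 and 0.33 for IGF2, 0.32 for DLK1, 0.20 for NNAT (adjusted p = 0.0412) and -0.46 and -0.24 for GNAS.

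**Figure D2:**
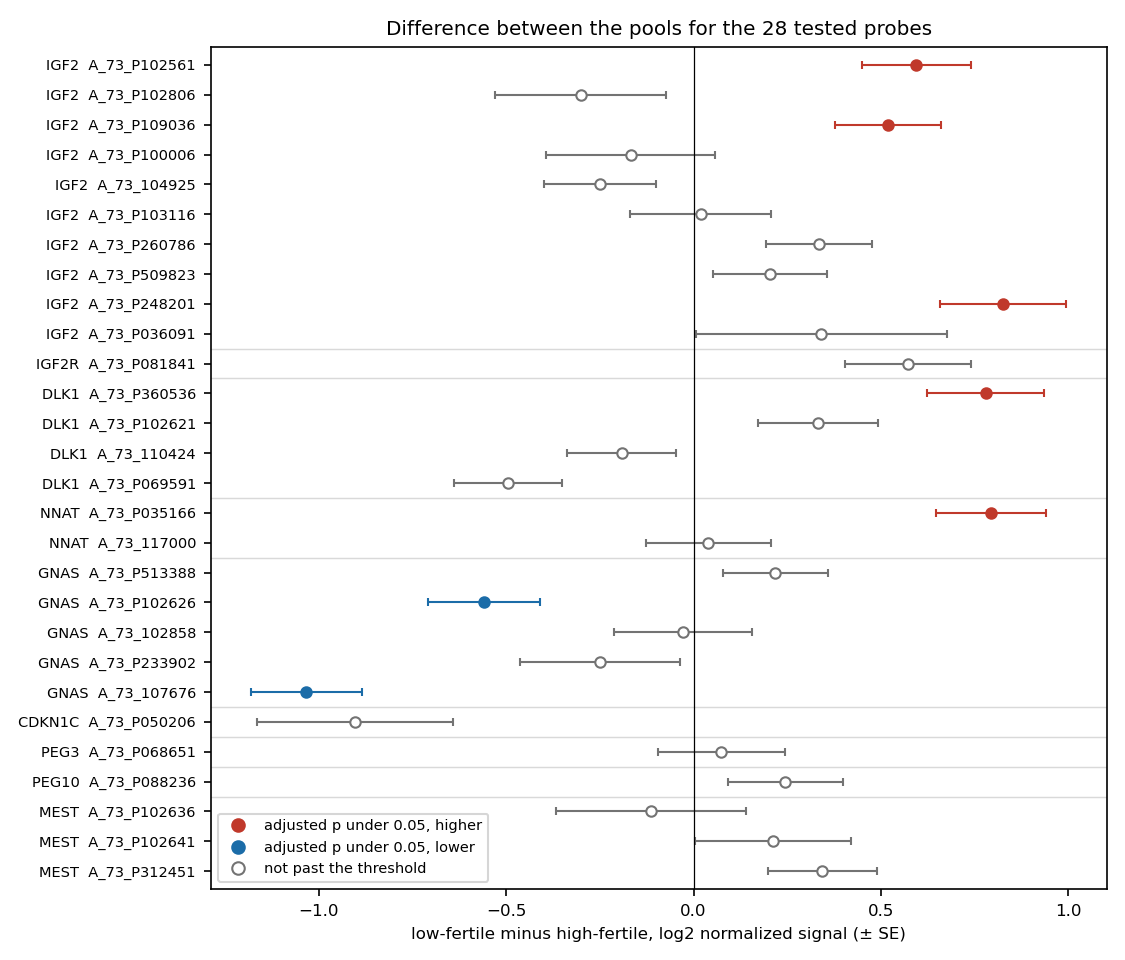
Low-fertile minus high-fertile difference (log2 normalized signal, ± SE) of the 28 tested probes, grouped by gene. Filled marks passed an adjusted p of 0.05, red for higher and blue for lower in low-fertile pools. The values run from -1.03 for a GNAS probe to 0.83 for an IGF2 probe, and IGF2, DLK1, GNAS and MEST each have tested probes on both sides of 0.

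IGF2 encodes an insulin-like growth factor that drives fetal growth and is expressed from the paternal allele in most tissues. Of its 14 probes, 10 were tested, 3 rose in low-fertile pools and none fell, and the differences of the 10 ran from -0.30 to 0.83 with a median of 0.27. The probe with the largest difference, A_73_P248201 at position 2734 of the transcript, read 58.4 and 50.1 in high-fertile pools and 89.3 and 91.5 in the low-fertile pools. Both low-fertile pools lay above both high-fertile pools. The mean level was 0.55 ± 0.17 in high-fertile and 1.38 ± 0.15 in low-fertile pools (SD, n = 2), a 1.77-fold difference (0.83, SE 0.17, adjusted p = 0.0206 in limma).

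The IGF2 probe that reads the A domain, A_73_P109036, gave 69.9 and 71.2 in the high-fertile and 98.3 and 92.3 in the low-fertile pools. It was 1.43-fold higher in low-fertile pools (0.52, SE 0.14, adjusted p = 0.0469 in limma), with no overlap. The other called probe, A_73_P102561, which lies upstream at chr29:51257891-51257950, gave 34.4 and 32.8 against 53.0 and 43.2, a 1.51-fold difference (0.59, SE 0.15, adjusted p = 0.0346). Without a single pool the adjusted p in limma rose to between 0.0777 and 0.164 for A_73_P109036, to between 0.0672 and 0.152 for A_73_P102561 and to between 0.0311 and 0.105 for A_73_P248201.

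The other tested IGF2 probes did not pass the threshold, and their differences had both signs. Probe A_73_P102806, which is at position 296 of the transcript and precedes the A domain, read 227 and 332 in the high-fertile and 203 and 218 in the low-fertile pools, a difference of -0.30 (SE 0.23) carried by high-fertile pool 2. Of the overlapping probes A_73_104925 and A_73_P103116, which share 42 bases, the first gave 54.5 and 61.5 against 50.8 and 41.5 (-0.25, SE 0.15) and the second 42.7 and 41.7 against 37.1 and 43.8 (0.02, SE 0.19). The groups overlapped at the second of these probes and not at the first. Probes A_73_P260786 and A_73_P509823 begin 5 bases apart in the transcript but share only 25 bases, and gave 0.34 (SE 0.14) and 0.20 (SE 0.15). Probe A_73_P100006 gave -0.17 (SE 0.22) and A_73_P036091 0.34 (SE 0.34), and in both the pools of the groups overlapped.

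Of the 4 IGF2 probes not tested, A_73_P348406 read 14.8 and 20.2 in the high-fertile and 41.1 and 31.0 in the low-fertile pools. It shares 54 bases with A_73_P036091 and was well above background in high-fertile pool 2 and low-fertile pool 1. A_73_P104016 read 11.8 and 28.1 against 25.5 and 21.5, and A_73_P061756 read 6.32 and 4.65 against 21.7 and 13.9, above background in low-fertile pool 1 only. A_73_P100081, which the scanner output describes as similar to this growth factor, was well above background on no array.

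IGF2R, the mannose 6-phosphate receptor that takes up IGF2 for degradation in lysosomes, has 3 probes, of which 1 was tested. Probe A_73_P081841 gave 27.9 and 22.7 in the high-fertile and 37.2 and 33.6 in the low-fertile pools, and the groups did not overlap. The difference of 0.57 (SE 0.17, adjusted p = 0.057 in limma) did not pass the threshold, which it passed when only probes well above background on all arrays were fitted (adjusted p = 0.0251). It was 0.34 (adjusted p = 0.182) with the GC correction, 0.19 (adjusted p = 0.392) under spike-in scaling and 0.12 (adjusted p = 0.155) under normexp. A_73_P337216 and A_73_118894 were well above background in low-fertile pool 1 only, and their signals lay between 9.63 and 19.7.

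DLK1 is a paternally expressed membrane protein with EGF-like repeats that resembles Notch ligands and holds back differentiation of fat and other cells. Its 4 tested probes went in both directions. Probe A_73_P360536, at position 499 of the transcript, read 36.4 and 43.4 in the high-fertile and 68.0 and 60.7 in the low-fertile pools, with no overlap. It was 1.72-fold higher in low-fertile pools (0.78, SE 0.16, adjusted p = 0.0193 in limma). Without low-fertile pool 1 it stayed past the threshold (adjusted p = 0.048), and without each other pool its adjusted p lay between 0.0525 and 0.0982.

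The neighbouring DLK1 probe A_73_P102621, at position 659, gave 51.6 and 43.6 in the high-fertile and 61.2 and 51.7 in the low-fertile pools, a difference of 0.33 (SE 0.16). Towards the end of the transcript the sign was the opposite in this fit, but not throughout after the correction for probe GC content described further on, with which the 4 probes gave 0.45, 0.0032, -0.42 and 0.26 in the order of their positions. Probe A_73_110424, at position 1206, gave 852 and 802 against 700 and 664 (-0.19, SE 0.15). Probe A_73_P069591, at position 1240, gave 55.8 and 54.1 against 40.8 and 33.1 (-0.50, SE 0.14, adjusted p = 0.0562 in limma). The latter pair share 26 bases, and in both the groups did not overlap. Another probe, A_73_P399776 at chr21:65720775-65720834, read 19.9 and 22.4 against 9.79 and 10.7, and was well above background on no array.

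NNAT encodes neuronatin, a small paternally expressed membrane protein of neurons and endocrine cells that acts in calcium handling. Probe A_73_P035166, near the start of the transcript, gave 24.4 and 27.3 in the high-fertile and 44.6 and 39.9 in the low-fertile pools. The pools of the groups did not overlap, and the difference was 1.73-fold (0.79, SE 0.15, adjusted p = 0.0148 in limma). Probe A_73_117000, at position 1104 of the same transcript, gave 171 and 146 against 152 and 154, a difference of 0.04 (SE 0.17). The groups overlapped, with levels of 2.22 and 1.98 in high-fertile and 2.03 and 2.24 in low-fertile pools. The first probe lost its call when high-fertile pool 1 (adjusted p = 0.0814) or high-fertile pool 2 (adjusted p = 0.0563) was left out. The remaining NNAT probe, A_73_P103311, which belongs to another transcript variant, read 13.7 and 20.9 against 34.4 and 22.8 and was not tested.

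GNAS encodes the stimulatory G protein alpha subunit, which couples receptors to adenylyl cyclase, and its locus also gives rise to the maternally expressed transcript of the secretory protein NESP55. Probe A_73_107676, which the scanner output assigns to NESP55, showed the largest difference among the 28 tested probes. It read 53.2 and 58.3 in high-fertile pools and 28.4 and 23.1 in the low-fertile pools. Both low-fertile pools were below both high-fertile pools. The probe was well above background on 1 of the 2 low-fertile arrays, so it entered the test only through the pair where it is higher, its low-fertile level rests in part on a signal near background, and it has no value under the filter that asks for all 4 arrays. The mean level was 0.59 ± 0.08 in high-fertile and -0.44 ± 0.08 in low-fertile pools (SD, n = 2), a 2.05-fold lower value in low-fertile pools (-1.03, SE 0.15, adjusted p = 0.0073 in limma). The adjusted p was between 0.016 and 0.0468 when a single pool was left out. Of its 60 bases, 49 are placed on the genome, at chr13:58191206-58191254, and the probe is printed on 2 spots of the array.

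Among the 6 probes of the transcript that encodes the G protein subunit, 4 were tested and 1 was called. Probe A_73_P102626, at position 855, read 27.7 and 24.8 in the high-fertile and 17.5 and 16.1 in the low-fertile pools, 1.47-fold lower (-0.56, SE 0.15, adjusted p = 0.0451 in limma). Its adjusted p was between 0.095 and 0.188 without a single pool. This probe too was well above background on 1 of the 2 low-fertile arrays and entered the test only through the high-fertile pair, as did both lower calls. The P loop probe A_73_P513388, at position 351, read 223 and 218 against 256 and 228, which is 0.22 (SE 0.14, adjusted p = 0.287) in the opposite direction. The overlapping probes A_73_102858 and A_73_P233902, which share 57 bases, gave -0.03 (SE 0.19) and -0.25 (SE 0.21). The first read 23.8 and 19.5 against 23.3 and 17.0 and the second 39.5 and 28.9 against 31.3 and 22.8, and in both the groups overlapped. The other 2 probes, A_73_P108901 and A_73_P039121, were well above background on no array.

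**Figure D3:**
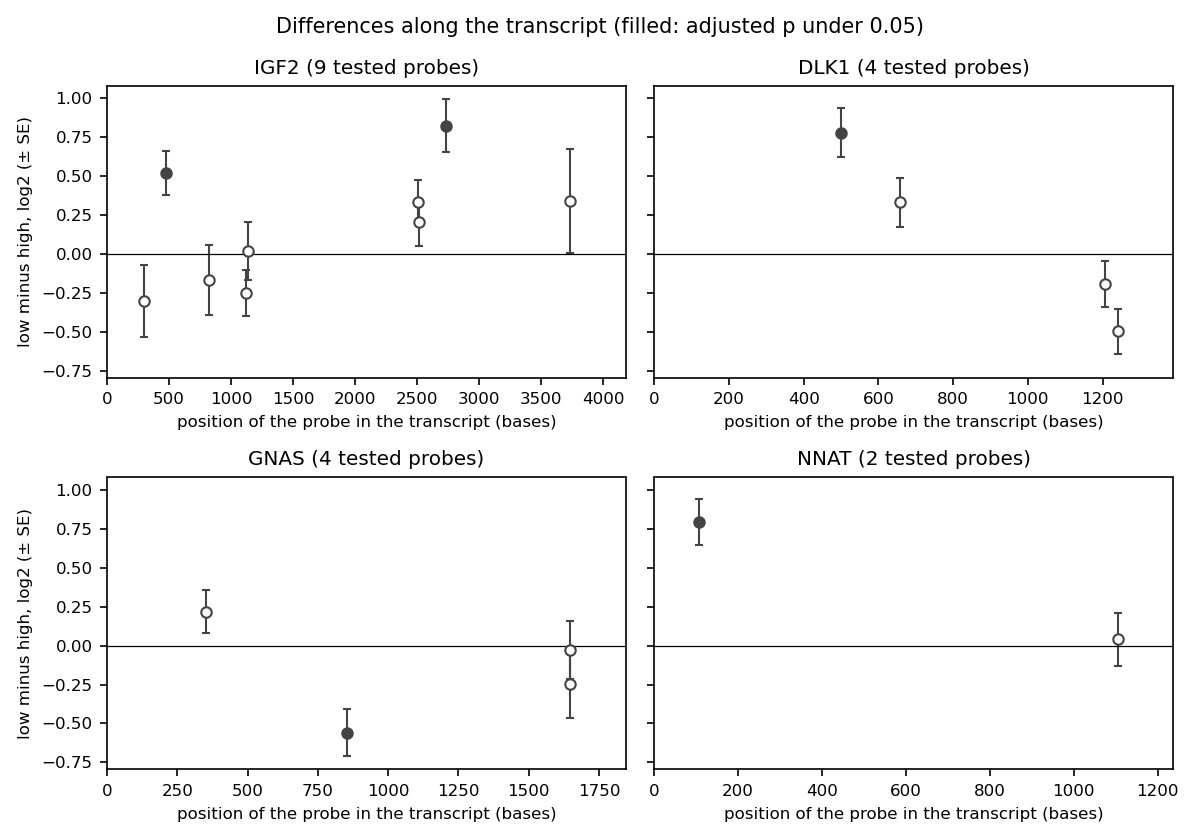
Low-fertile minus high-fertile difference (log2, ± SE) of tested probes against their position in the transcript (bases), for 1 transcript each of IGF2, DLK1, GNAS and NNAT. Filled marks passed an adjusted p of 0.05. In DLK1 the values go from 0.78 at position 499 to -0.50 at position 1240, where the GC-corrected value is 0.26, and in NNAT from 0.79 to 0.04.

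CDKN1C and PLAGL1 restrain cell division, the former as a maternally expressed inhibitor of cyclin-dependent kinases and the latter as a paternally expressed zinc finger transcription factor. The single CDKN1C probe, A_73_P050206, read 40.9 and 51.0 in the high-fertile and 19.4 and 27.3 in the low-fertile pools. The groups did not overlap, and the probe was not well above background in low-fertile pool 2, so that it entered the test only through the high-fertile pair. The difference of -0.90 (SE 0.26, adjusted p = 0.0551 in limma) did not pass the threshold in the fit reported here. With the same 4 pools it passed under spike-in scaling (-1.29, adjusted p = 0.0192) and with the replicate block (adjusted p = 0.0196), and not under normexp (-0.21, adjusted p = 0.186) or with the GC correction (-0.15, adjusted p = 0.745). Without low-fertile pool 2 the difference was -1.24 (adjusted p = 0.0221), and without low-fertile pool 1 it was -0.57 (adjusted p = 0.118). Of the PLAGL1 probes, A_73_P103146 read between 6.32 and 9.96 and A_73_P291476 between 3.91 and 7.80, both well above background on no array. A_73_116980 read 13.6 and 22.6 in the high-fertile and 24.4 and 19.3 in the low-fertile pools, and was well above background in high-fertile pool 2 and low-fertile pool 1.

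PEG3, PEG10 and MEST are paternally expressed genes with roles in placenta and maternal behaviour: PEG3 is a zinc finger transcription factor, PEG10 derives from a retrotransposon, and MEST resembles alpha/beta hydrolases. None of their 5 tested probes passed the threshold. The PEG3 probe A_73_P068651 gave 39.4 and 49.98 in the high-fertile and 46.9 and 41.3 in the low-fertile pools (0.07, SE 0.17), so that the low-fertile values lay between the high-fertile ones. The PEG10 probe A_73_P088236 gave 26.8 and 29.6 against 35.7 and 27.8 (0.24, SE 0.15).

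For MEST, probe A_73_P312451 gave 208 and 227 in the high-fertile and 269 and 251 in the low-fertile pools, with no overlap (0.34, SE 0.14, adjusted p = 0.134 in limma). A_73_P102636 gave -0.11 (SE 0.25) and A_73_P102641 0.21 (SE 0.21), and in both the groups overlapped. The remaining MEST probes, A_73_P329921 and A_73_100042, were well above background on no array. Of the untested PEG3 and PEG10 probes, A_73_P280716 was well above background in low-fertile pool 1 only, A_73_P030956 in high-fertile pool 1 and low-fertile pool 1, and A_73_P042966 and A_73_P468253 on no array.

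The difference between the groups went with the base composition of the probe over the whole array, and this touches every value above. Over all tested probes the median difference was -0.87 for probes of 35% GC or less, -0.13 for those over 40 and up to 45%, 0.21 for those over 50 and up to 55% and 0.29 for those over 55 and up to 60%. Pearson's r between GC content and the difference was 0.53 over the 28 imprinted probes and 0.44 over the 21033 probes, and probes of 1 array share libraries and scaling. Among the imprinted probes, the 5 called higher had 55% or 60% GC, and the 2 called lower had 41.7% (A_73_107676) and 45% (A_73_P102626). The median difference of imprinted probes was 0.33 over the 13 with at least 50% GC and -0.03 over the 15 with less, against 0.23 and -0.23 over the 8444 and 12589 probes of the array.

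A correction for probe GC content, chosen after seeing the data, was therefore set beside the differences. With it 4 of the 28 imprinted probes were called (14.3%), against 20.8% of the array. Called in both fits were 2 probes, the NESP55 probe of GNAS at -0.92 (adjusted p = 0.0157 in limma) and the NNAT probe A_73_P035166 at 0.57 (adjusted p = 0.0473). Of the others called without the correction, IGF2 A_73_P248201 had 0.60 (adjusted p = 0.052), A_73_P102561 0.37, A_73_P109036 0.19, DLK1 A_73_P360536 0.45 and GNAS A_73_P102626 -0.45. CDKN1C, with 35% GC, had -0.15 after the correction (adjusted p = 0.745). IGF2 A_73_P260786 at 0.89 and GNAS A_73_102858 at 0.73 were called with the correction only. Whether base composition itself or RNA that differs between the pools underlies the trend was not tested.

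**Figure D4:**
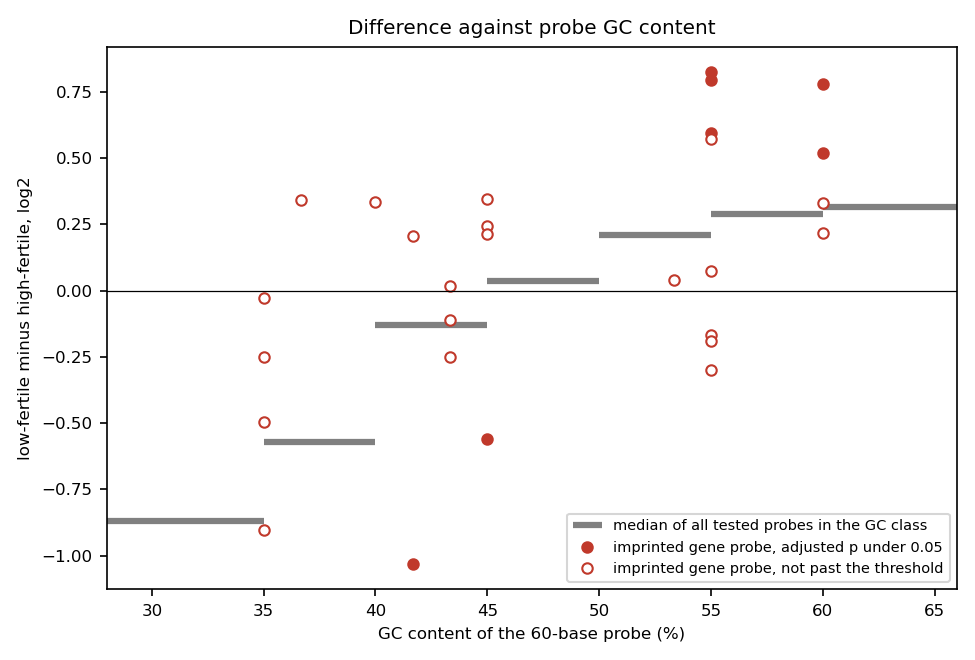
Low-fertile minus high-fertile difference (log2) of the 28 tested imprinted probes against the GC content of the probe (%). Grey bars are the medians of all tested probes in the same GC class, from -0.87 at 35% or less to 0.32 over 60%, and filled marks are imprinted probes with an adjusted p of 0.05 or lower, 5 of which lie above the grey bar at 55% or 60% GC.

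Other imprinted genes were compared by the brightest tested probe of each gene. Of 34 listed genes 30 were on the array and 19 were tested. In low-fertile pools 2 were higher and 4 lower, while 13 did not pass the threshold, and the median difference was 0.03 against 0.01 over 16685 genes. Of those 16685 genes, 9.53% were called higher and 16.6% lower. Higher were TFPI2, a protease inhibitor made in placenta, by 0.95 (SE 0.16, adjusted p = 0.0108 in limma), and GRB10, an adaptor that restrains insulin receptor signalling, by 0.78 (adjusted p = 0.034). TFPI2 read 55.2 and 48.1 against 104 and 84.9, and GRB10 23.9 and 24.5 against 36.0 and 42.7. Both probes have 35% GC, and after the GC correction their differences were 1.71 and 1.54.

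Lower in low-fertile pools were COPG2, a coat protein gene next to MEST, SNURF and SNRPN, which share a paternally expressed transcript of the Prader-Willi region, and MEG3, a maternally expressed noncoding RNA of the DLK1 locus. COPG2 read 35.3 and 32.7 against 3.75 and 7.86, and since neither low-fertile pool was well above background it was at least 4.19-fold lower (adjusted p = 0.00956 in limma). SNURF read 63.4 and 69.2 against 29.5 and 22.1 (-1.29, adjusted p = 0.00506). SNRPN, at 35% GC, read 277 and 301 against 161 and 185 (-0.66, adjusted p = 0.0494), and its value was 0.10 after the GC correction. MEG3 read 28.2 and 31.9 against 21.5 and 16.4 (-0.59, adjusted p = 0.0462), and lost its call after the GC correction (-0.48, adjusted p = 0.087). SNURF was -1.18 with it. COPG2, SNURF and MEG3 entered the test only through the high-fertile pair, SNURF and MEG3 being well above background on 1 of the 2 low-fertile arrays and COPG2 on neither. H19, the maternally expressed noncoding RNA beside IGF2, gave 30.9 and 32.4 against 31.2 and 15.2, a difference of -0.45 (SE 0.29, adjusted p = 0.293) that came from low-fertile pool 2, where it was not well above background.

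Of 23 genes that act with these growth regulators, 21 were on the array and 18 were tested, of which 3 were higher and 2 lower in low-fertile pools, with a median of -0.10. With 9.53% of all genes called higher and 16.6% lower, the list's share of calls was near that of the array. Without a single pool the 5 calls came to 0 when either high-fertile pool was left out (4 and 5 at an unadjusted p under 0.05 in limma) and to 1 when either low-fertile pool was. IGF1R, the receptor through which IGF2 signals, read 31.9 and 37.7 in the high-fertile and 61.8 and 43.7 in the low-fertile pools (0.67, SE 0.18, adjusted p = 0.0462 in limma). IRS1, an adaptor below that receptor, was higher by 0.70 (adjusted p = 0.0212) and IGFBP2, a binding protein of the growth factors, by 0.69 (adjusted p = 0.0285). Among the other tested probes of the 2 genes the lowest differences were 0.28 for IRS1 and 0.20 for IGFBP2. CDK2, a cell cycle kinase that CDKN1C inhibits, was lower (-0.77, adjusted p = 0.0169), as was the brighter tested probe of the receptor NOTCH1 (-0.68, adjusted p = 0.0227), whose other tested probe gave -0.025. After the GC correction CDK2 was the 1 gene of the list still called (-0.66, adjusted p = 0.0332). By the brightest tested probe of each of these 5 genes both low-fertile pools lay on the same side of both high-fertile pools. As the 5 were picked by their calls, this adds no support, and the groups did not overlap for 69.1% of all tested probes.

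Of 14 genes that keep imprints in the early embryo, 11 were on the array and 7 were tested, of which 1 was higher and 1 lower, with a median of -0.13, again near the array's shares of 9.53% higher and 16.6% lower. UHRF1, which brings the maintenance methyltransferase to replicated DNA, read 22.0 and 30.1 in the high-fertile and 11.8 and 6.24 in the low-fertile pools. Neither low-fertile pool was well above background. By the signals as measured, UHRF1 was 2.83-fold lower (adjusted p = 0.0178 in limma). This fold rests on low-fertile signals near background, and it is not a lower limit. After the GC correction UHRF1 was not called (adjusted p = 0.115), and it too entered the test only through the high-fertile pair. PADI6, a maternal protein of the oocyte, read 28.1 and 33.0 against 49.4 and 40.3 (0.64, adjusted p = 0.0354), and 0.41 after the GC correction, which ended the call (adjusted p = 0.131). CTCF, the insulator protein that binds the control region between IGF2 and H19, read 59.7 and 66.3 against 51.3 and 32.8 (-0.53, SE 0.20, adjusted p = 0.106), and did not pass the threshold.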

How the data were processed

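Sperm RNA of 2 high-fertile and 2 low-fertile pools was measured on 4 one-colour bovine arrays of 1 slide. Labelling was primed with oligo dT, which favours the 3′ end of transcripts. The authors deposited scanner intensity values (Feature Extraction 11.5.1.1, background subtracted, placed on Btau_3.1 per the file headers) and a table of log2 values shifted by the 75th percentile of each array.

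Outlier spots were left out, spots of a probe were averaged as log2 processed signal, and the 75th percentile over sample probes was subtracted. A probe was well above background on an array when at least 0.5 of its spots were. Fitted were the 21033 probes for which each array of 1 group or both carried that mark, in limma 3.58.1 (R 4.3.3, prior degrees of freedom 3.52) with Benjamini-Hochberg adjustment, after the fit had been tested on simulated data. Tables were handled in Python 3.11.15 with pandas 2.3.3. No tested imprinted probe had a missing value.

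The members and gene lists were chosen with earlier results of these data known. All probes of the 10 genes are named, and of the lists the genes past an adjusted p of 0.05 (at most the 4 largest rises and 4 largest falls) with IGF1R, H19 and CTCF. Of the 47 probe accessions, 40 were found in RefSeq under the same symbol. A further 2 probes that the files describe as delta-like 1 under a transcript name were not counted. The alternatives concern scaling, background, filter, spots, the deposited table, the replicate block, the methods' t-test, each pool left out and the probe of a gene. Spike-in scaling and the GC correction were added after seeing the data. A block for slide or scan was impossible, as there was 1 of each. The red cell marker list as a whole is not reported here.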

Additional observations from a re-analysis of the deposited data

How the results depend on the processing

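The count of called imprinted probes was 7 of 28 and stayed between 5 and 8 under 8 of the alternatives that kept all pools. It was 4 with the GC correction, and in a range from 1 to 4 without a single pool. With no filter limma called 0 of 47 (12 at an unadjusted p under 0.05), and the methods' t-test called 0 of 28 (11 unadjusted, and 1 of them past a log2 difference of 1), as both called 0 over the whole array, where the main count was 5632. Over the array limma called 2872 probes when high-fertile pool 1 was left out and 2640 when pool 2 was. Same-numbered pools did not deviate together (r = 0.005 over 21024 probes). No pairing showed in these values, but such a correlation cannot settle whether the numbers mark one. The replicate block gave 5 imprinted calls and 1 imprint maintenance call. The block ended the calls of IGF2 A_73_P102561 (adjusted p = 0.055 in limma), IGF2 A_73_P109036 (0.0795) and GNAS A_73_P102626 (0.0718), and called CDKN1C.

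Of the other imprinted genes, 6 were called in the fit reported, 3 when only probes well above background on all arrays were used, and 3 to 5 without a single pool. Growth partner genes went from 5 to 1 with the GC correction and to between 0 and 1 without a single pool, and imprint maintenance genes from 2 to 0 (2 unadjusted in limma) and to between 0 and 2. With no filter these lists had 0 calls each (4, 5 and 2 unadjusted in limma), and with the methods' t-test 0 each (3, 5 and 1 unadjusted).

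None of the 7 called probes changed direction under any alternative run. The reversals below concern differences that were not called in the fit reported, and their cause was not tested. Under spike-in scaling, which lowers every difference alike, these turned negative: IGF2 A_73_P103116 (-0.36), A_73_P260786 (-0.047), A_73_P509823 (-0.18) and A_73_P036091 (-0.041), PEG3 (-0.31), PEG10 (-0.14), MEST A_73_P102641 (-0.17) and A_73_P312451 (-0.039), GNAS A_73_P513388 (-0.16), NNAT A_73_117000 (-0.34) and DLK1 A_73_P102621 (-0.051). With the GC correction PEG3 became -0.15, GNAS A_73_P513388 -0.11, NNAT A_73_117000 -0.19, DLK1 A_73_P069591 0.26, and GNAS A_73_102858 0.73 and A_73_P233902 0.505. GNAS A_73_102858 was 0.0057 with the 75th percentile over probes above background on all arrays, 0.040 under quantile and 0.0095 under normexp, and normexp gave 0.059 for MEST A_73_P102636 and -0.13 for NNAT A_73_117000. Without a single pool the differences ran from -0.43 to 0.091 for IGF2 A_73_P100006, -0.19 to 0.23 for A_73_P103116, -0.068 to 0.75 for A_73_P036091, -0.089 to 0.24 for PEG3, -0.44 to 0.21 for MEST A_73_P102636, -0.039 to 0.46 for A_73_P102641, -0.18 to 0.12 for GNAS A_73_102858 and -0.080 to 0.16 for NNAT A_73_117000. Leaving out a pool leaves 1 sample in a group, which is then assumed to vary like the other. Of the 28 tested probes, 8 were not well above background in low-fertile pool 2.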
